A study of Mus musculus with 11 samples.

Results

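The leukotriene and prostaglandin genes described here are 10 of the 17181 genes in the deposited table: Alox5, Alox5ap, Ltc4s, Lta4h, Dpep2, Cysltr1, Cysltr2, Ptgs1, Ptgs2 and Ptges. They were selected on measured values: 3 of them, Alox5ap, Dpep2 and Cysltr2, were among the genes of smallest p in these tumours, and the other 7 complete the pathway around them. Dpep2 had the smallest p of all higher genes for OPG-Fc averaged over palbociclib, Cysltr2 ranked 2 among the lower genes for OPG-Fc against vehicle, and Alox5ap ranked 1 among the higher genes for the combination against palbociclib once vehicle replicate 2 was left out. In those 3 comparisons the values below are a description, and no test of any of the 10 genes is given.

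Poly(A) RNA of 11 subcutaneous 4T1 tumours was sequenced. 4T1 is a mouse mammary carcinoma line, implanted with matrigel on both flanks of NSG mice, a strain without T, B and NK cells. Dosing started at a volume near 100 mm3 and ran for 12 days. Vehicle tumours (n = 2, called untreated in their titles) received sodium lactate, corn oil and DMSO. OPG-Fc, a decoy receptor that captures RANKL, was injected intraperitoneally at 10 mg/kg 3 times per week (n = 3). Palbociclib, an inhibitor of CDK4 and CDK6, was given by mouth at 30 mg/kg each day (n = 3), and the combination group received both (n = 3). Which tumours grew in the same mouse is not stated, so p-values measure the spread between these tumours only. By the labels, all groups thus share 1 tumour line and hosts without adaptive lymphocytes, while the title names the model syngeneic. Some libraries held T and B cell transcripts all the same, as given below.

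Leukotrienes and prostaglandins are short-lived lipid mediators made from arachidonic acid, which phospholipases release from membranes. In the leukotriene branch, 5-lipoxygenase (Alox5) and its membrane helper FLAP (Alox5ap) make an unstable epoxide, which Lta4h turns into a neutrophil attractant and Ltc4s joins to glutathione to start the cysteinyl leukotrienes. In the prostaglandin branch the cyclooxygenases Ptgs1 and Ptgs2 make a precursor that terminal synthases such as Ptges convert. Macrophages, mast cells and granulocytes are the best known leukotriene makers, whereas tumour and stromal cells can also run the cyclooxygenase branch.

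RefSeq start sites on GRCm38.p6 were found for 7 of the 10 genes. The 250 bases before the start are shown for a pair of leukotriene enzymes whose transcripts lay together across tumours, and for a pair of prostaglandin enzymes whose transcripts did not follow them. Capitals mark a GC box (GGGCGG) or an ETS-type core (GGAAGT), each searched on both strands. The expression values rest on another build, and no coordinate was carried between builds. Alox5 is read on the minus strand at chr6:116461179-116461428, Ltc4s on the minus strand at chr11:50238533-50238782, Ptgs2 on the plus strand at chr1:150099781-150100030 and Ptges on the minus strand at chr2:30903298-30903547.
Alox5: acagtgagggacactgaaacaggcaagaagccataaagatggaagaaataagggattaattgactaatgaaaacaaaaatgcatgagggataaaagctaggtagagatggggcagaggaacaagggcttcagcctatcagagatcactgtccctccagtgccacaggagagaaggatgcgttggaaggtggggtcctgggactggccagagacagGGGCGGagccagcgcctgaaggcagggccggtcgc
Ltc4s: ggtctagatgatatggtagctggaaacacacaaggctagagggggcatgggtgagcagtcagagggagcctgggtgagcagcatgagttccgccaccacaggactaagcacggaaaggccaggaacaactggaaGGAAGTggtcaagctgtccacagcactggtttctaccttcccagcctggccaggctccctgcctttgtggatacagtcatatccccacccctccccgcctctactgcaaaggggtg
Ptgs2: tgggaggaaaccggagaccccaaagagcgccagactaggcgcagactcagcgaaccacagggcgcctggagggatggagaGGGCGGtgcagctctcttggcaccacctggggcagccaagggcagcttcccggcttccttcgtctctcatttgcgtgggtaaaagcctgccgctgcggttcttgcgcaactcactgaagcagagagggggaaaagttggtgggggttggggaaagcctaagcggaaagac
Ptges: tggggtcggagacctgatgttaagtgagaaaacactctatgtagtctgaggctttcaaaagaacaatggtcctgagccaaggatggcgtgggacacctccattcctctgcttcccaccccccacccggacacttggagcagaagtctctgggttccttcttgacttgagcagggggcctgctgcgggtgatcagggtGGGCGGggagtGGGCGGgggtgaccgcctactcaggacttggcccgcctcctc
The GC box lay 35 to 30 bases before the start of Alox5 and 170 to 165 bases before that of Ptgs2, and Ptges held it at 53 to 48 and again at 42 to 37. The ETS-type core lay 116 to 111 bases before the Ltc4s start, and that of Ptgs1 held one at 22 to 17. Neither set of letters was found before Lta4h or Cysltr2. Over 32851 windows of this length, 32.7% held the GC box and 19.7% the ETS-type core, so both are common. Alox5ap, Dpep2 and Cysltr1 have no entry in the promoter table.

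The second vehicle tumour, vehicle replicate 2, differed sharply in tissue content. Its epithelial marker sum was 58.4 FPKM (fragments scaled by transcript length and library size) against 2799 to 4113 in the other 10 libraries, and its sum for T, B and NK cell genes was 5845. OPG-Fc replicate 2 came next for those lymphoid genes, at 703, and the other 9 libraries held 8.0 to 40.6. In vehicle replicate 2 and OPG-Fc replicate 2, the T cell gene Cd3e was 56.2 and 9.63 FPKM. The B cell gene Cd79a was 723 and 73.6 FPKM. Hosts without T and B cells, as the labels name them, do not account for such transcripts, and their source was not tested. Fits are reported both with it, over all 11 libraries, and without it, when the vehicle group is 1 tumour whose spread is taken from the other groups. All 10 genes reached 1 FPKM in 2 or more libraries, as did 13074 genes in all. FPKM values of a library summed to 576699 to 864670, and the read depth is unknown.

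Across the 11 tumours, median levels per length ran from Alox5ap, 72.2 FPKM, through Lta4h, 47.9 FPKM, Ltc4s, 20.9 FPKM, Ptgs1, 19.4 FPKM, Ptges, 19.3 FPKM, Ptgs2, 13.2 FPKM, and Dpep2, 9.43 FPKM. Cysltr1 at 4.46, Alox5 at 3.63 and Cysltr2 at 1.01 FPKM were lowest. The ranges of neighbours in that order overlapped in every case, most closely for Ptgs1 and Ptges, where Ptgs1 was the higher in 6 of 11 tumours.

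**Figure D1:**
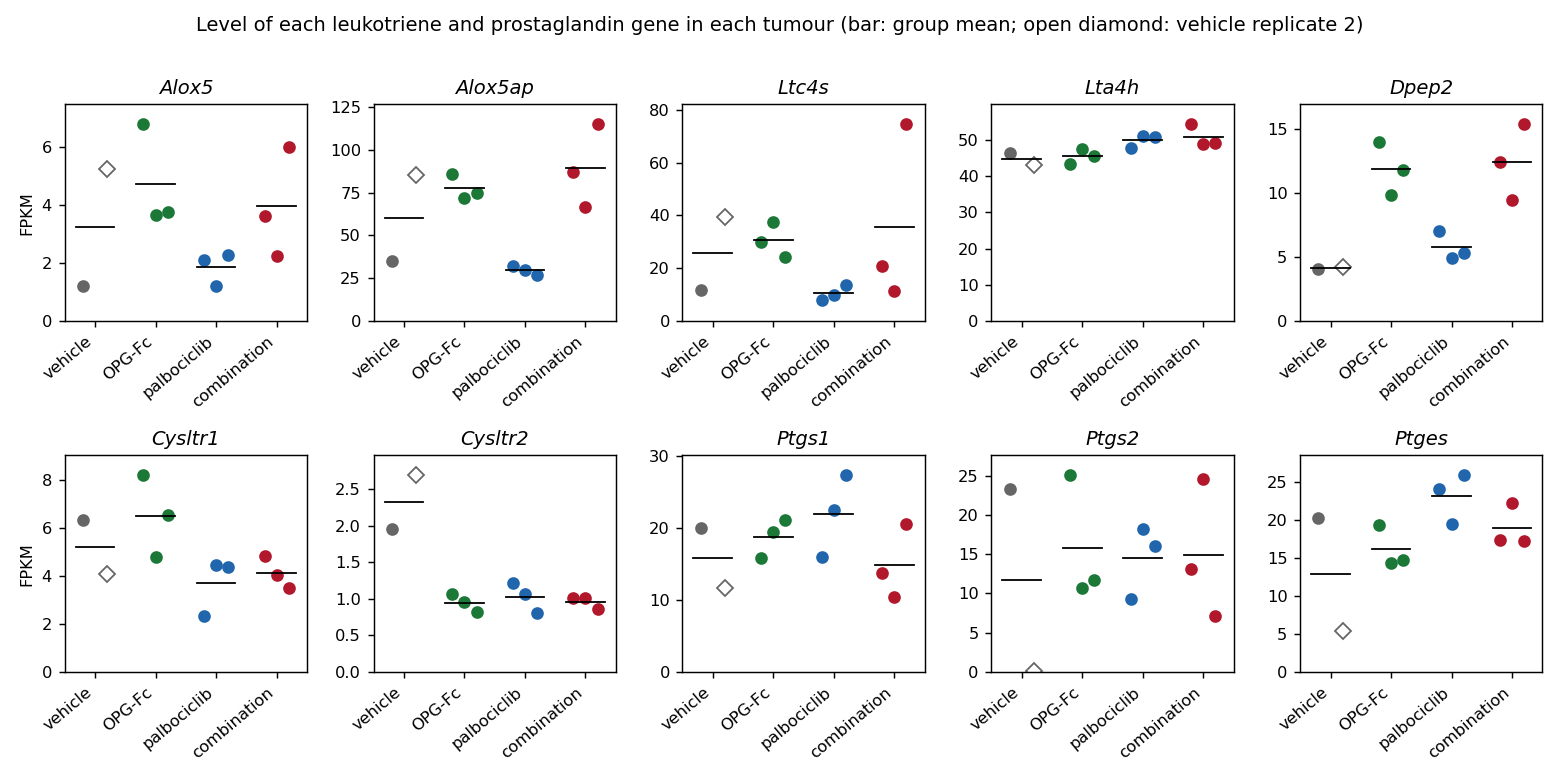
FPKM of each of the 10 genes (linear axes from 0) in every tumour, by group, with the group mean as a bar and vehicle replicate 2 as an open diamond. Alox5ap, Ltc4s, Alox5 and Dpep2 are low in the 3 palbociclib tumours against the 3 OPG-Fc tumours, while Lta4h hardly varies.

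The comparison of palbociclib with OPG-Fc did not itself rank the genes, but each arm enters a comparison that did, so it is not independent of the choice. For Dpep2 it is part of the very contrast that ranked it, since OPG-Fc averaged over palbociclib is also the mean of combination minus vehicle and OPG-Fc minus palbociclib. Dpep2 is therefore a description only in both of these comparisons. Where it is counted or drawn among genes past a threshold there, that call supports nothing. Alox5, Alox5ap, Ltc4s and Dpep2 had lower levels in palbociclib tumours than in OPG-Fc tumours, at mean levels of 1.85, 29.5, 10.5 and 5.75 FPKM against 4.73, 77.7, 30.5 and 11.9 FPKM. Of the 10 genes, 7 had groups that did not overlap, beside 33.1% of all tested genes: Alox5, Alox5ap, Ltc4s, Dpep2 and Cysltr1 below (21.8% of all genes) and Lta4h and Ptges above (11.3%). With limma and Benjamini-Hochberg adjustment over all genes, none of the 10 passed in the fit of all libraries (0.91% of genes called). There 5 had an unadjusted p under 0.05, beside 1608 of 13074 genes, and the 5 include the chosen Alox5ap and Dpep2. Without vehicle replicate 2, Alox5ap and Dpep2 were past the threshold, 2 of 10 beside 10.3% of all genes (9.13% lower). Dpep2 supports nothing here. Alox5ap was ranked on the same palbociclib tumours, so its test is no independent support either. The median difference of the 10 genes was -0.38 on the log2(FPKM + 1) scale, against -0.04 over all genes. This median and the count of 7 both include Alox5ap and Dpep2, chosen on tumours of these arms. Both are therefore shifted in part by the choice and are a description only.

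Alox5ap encodes FLAP, which hands arachidonic acid to 5-lipoxygenase. Its level was 85.8, 72.2 and 75.0 FPKM in the OPG-Fc tumours and 32.1, 29.6 and 26.9 FPKM in the palbociclib tumours. It was 87.4, 66.6 and 115 FPKM in the combination and 35.2 and 85.6 FPKM in vehicle. The lowest OPG-Fc or combination tumour thus held more than any palbociclib tumour. Vehicle replicate 1 lay just above the palbociclib tumours and replicate 2 among the OPG-Fc tumours. The palbociclib tumours also entered the comparison that ranked Alox5ap, so the tests that follow are not independent of its choice. The palbociclib minus OPG-Fc difference was -1.37 ± 0.30 (SE, log2 scale; limma adjusted p = 0.0722), and -1.37 ± 0.18 without vehicle replicate 2 (adjusted p = 0.00204). Leaving out OPG-Fc replicate 2, the library with lymphoid transcripts, gave -1.42, with a limma adjusted p of 0.2 over the remaining 10 libraries and 0.00763 when vehicle replicate 2 was also out.

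Dpep2 encodes a membrane dipeptidase that converts leukotriene D4 to E4. Its level was 13.9, 9.84 and 11.8 FPKM in the OPG-Fc tumours and 7.02, 4.91 and 5.33 FPKM under palbociclib. Combination tumours held 12.4, 9.43 and 15.4 FPKM, and the vehicle pair 4.05 and 4.18 FPKM. All 6 tumours that received OPG-Fc were above all 5 that did not, which includes vehicle replicate 2. Palbociclib minus OPG-Fc was -0.93 ± 0.20 (SE) in both fits, a description only.

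Alox5, the lipoxygenase itself, was 6.78, 3.66 and 3.76 FPKM in the OPG-Fc tumours against 2.10, 1.20 and 2.26 FPKM under palbociclib. In the combination it was 3.63, 2.25 and 6.00 FPKM, and in vehicle 1.22 and 5.24 FPKM. The OPG-Fc and palbociclib groups were separate, and the combination spanned the gap. The difference was -0.99 ± 0.42 (SE; limma adjusted p = 0.364), and ± 0.30 with an adjusted p of 0.0730 without vehicle replicate 2.

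Ltc4s, the leukotriene C4 synthase, was 29.8, 37.4 and 24.4 FPKM in the OPG-Fc tumours and 7.81, 9.83 and 13.8 FPKM under palbociclib. The combination held 20.9, 11.4 and 74.6 FPKM, and vehicle 11.9 and 39.5 FPKM. Combination replicate 3 was the highest of all 11, while replicate 2 of that group lay within the palbociclib range. The palbociclib minus OPG-Fc difference of -1.47 was the largest of the 10 genes but also had a wide SE of 0.62 (limma adjusted p = 0.364, or 0.122 without vehicle replicate 2). Alox5 and Ltc4s were past the threshold only in a few alternative settings, among them the fit without combination replicate 3 and vehicle replicate 2. Neither library is in an arm compared here, so leaving them out changes only the spread estimated over all groups. Those calls support neither gene.

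Lta4h, the hydrolase of the leukotriene B4 branch, stayed between 43.1 and 54.4 FPKM in all 11 tumours. It was 43.5, 47.6 and 45.6 FPKM with OPG-Fc, 47.9, 51.1 and 51.0 FPKM with palbociclib, 54.4, 48.8 and 49.2 FPKM with the combination and 46.5 and 43.1 FPKM in vehicle. The 6 palbociclib-treated tumours were all above the other 5, by a small margin. The difference between palbociclib and OPG-Fc, 0.13 on the log2 scale, did not pass in either fit.

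Cysltr1, the receptor with highest affinity for leukotriene D4, was 8.19, 4.80 and 6.54 FPKM with OPG-Fc and 2.33, 4.46 and 4.35 FPKM with palbociclib. The combination held 4.81, 4.04 and 3.50 FPKM and vehicle 6.32 and 4.06 FPKM. The difference was -0.68 (limma adjusted p = 0.291, or 0.101 without vehicle replicate 2). Cysltr2, the other cysteinyl leukotriene receptor, was 1.96 and 2.69 FPKM in vehicle. It lay between 0.81 and 1.21 FPKM in all 9 treated tumours, so that the vehicle pair was above every treated tumour at a level close to the filter on low values.

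**Figure D2:**
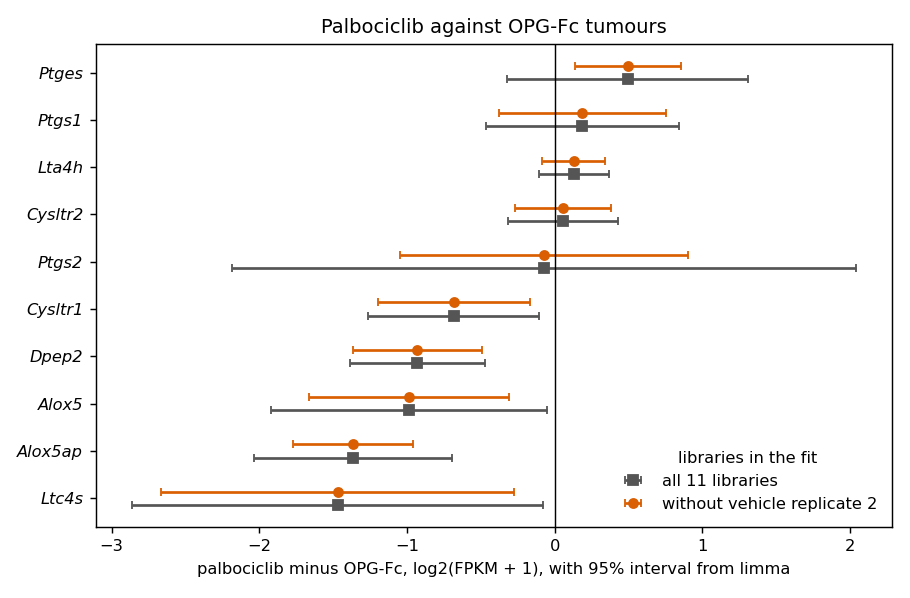
Palbociclib minus OPG-Fc difference on the log2(FPKM + 1) scale with its 95% interval from limma for each of the 10 genes, with all 11 libraries (squares) and without vehicle replicate 2 (circles). The point estimates are the same in both fits, from -1.47 for Ltc4s to 0.50 for Ptges, and the intervals narrow without that library.

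The prostaglandin members did not share the low palbociclib values. Ptgs1, the constitutive cyclooxygenase, was 15.8, 19.4 and 21.1 FPKM with OPG-Fc and 15.9, 22.5 and 27.3 FPKM with palbociclib. It was 13.8, 10.3 and 20.6 FPKM with the combination and 19.9 and 11.6 FPKM in vehicle. All groups overlapped.

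Ptgs2, the inducible cyclooxygenase, was 25.1, 10.7 and 11.8 FPKM with OPG-Fc, 9.28, 18.2 and 16.0 FPKM with palbociclib and 13.2, 24.5 and 7.11 FPKM with the combination. The vehicle pair differed most, 23.3 FPKM in replicate 1 and 0.11 FPKM in replicate 2, the library with few epithelial transcripts. Its palbociclib minus vehicle difference was 1.53 with both vehicle tumours and -0.70 without replicate 2, so its direction rested on that tumour. Against OPG-Fc the difference was -0.07, which became 0.03 under median-of-ratios scaling.

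Ptges, the inducible terminal synthase of prostaglandin E2, was 24.0, 19.5 and 25.9 FPKM with palbociclib and 19.3, 14.4 and 14.8 FPKM with OPG-Fc. The combination held 17.4, 22.2 and 17.3 FPKM, and vehicle 20.2 and 5.42 FPKM. Every palbociclib tumour was above every OPG-Fc tumour, though by a margin smaller than the spread within either group. The difference was 0.50 ± 0.36 (SE; limma adjusted p = 0.726), and ± 0.16 with an adjusted p of 0.0867 without vehicle replicate 2. Skin keratinocyte and hair follicle transcripts summed to 809 and 676 FPKM in palbociclib replicates 1 and 3, where Ptges was highest, and to 2.07 to 59.2 FPKM in the other 9 tumours, and their part in the Ptges values was not tested.

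Macrophage marker levels were also lower in palbociclib than in OPG-Fc tumours. All 12 fixed markers were detected in every tumour, and their summed level was 3572 to 4407 FPKM with OPG-Fc, 1077 to 1414 FPKM with palbociclib, 1921 to 4346 FPKM with the combination and 1748 and 4887 FPKM in vehicle. For palbociclib minus OPG-Fc the estimates of all 12 were below 0, with a median of -1.12. Of these, 10 passed the adjusted threshold without vehicle replicate 2 (10.3% of all genes) and 1 with all libraries (0.91%). Their part in the Alox5ap, Dpep2, Alox5 and Ltc4s values was not tested, and in bulk tumours fewer cells of a type and less RNA per cell cannot be told apart. Other stromal marker sums were lower under palbociclib too. Fibroblast markers summed to 777 to 966 FPKM against 2246 to 3119 FPKM with OPG-Fc, and 8 of 10 passed without vehicle replicate 2 and 3 with all libraries. Endothelial markers summed to 60.2 to 76.4 against 138 to 173 FPKM, with 9 and 5 of 10 passing, and adipocyte markers to 64.2 to 105 against 799 to 2512 FPKM, with 7 and 0 of 8 passing. Mast cell marker sums overlapped, at 42.9 to 124 FPKM with palbociclib against 34.4 to 60.1 FPKM with OPG-Fc. Neutrophil sums overlapped too, at 438 to 1226 against 407 to 1721 FPKM, but rested mostly on S100a8 and S100a9. Csf3r was 10.43 to 12.56 against 18.57 to 29.72 FPKM, and Ngp 0.12 to 0.79 against 4.13 to 16.2 FPKM. The 10 tested neutrophil genes differed by -2.83 to 0.15, with a median of -0.47. Eosinophil and basophil sums were 30.15 to 35.1 against 35.07 to 79.41 FPKM. Mcpt8, most of the palbociclib sums, was 28.27 to 34.02 against 20.58 to 23.67 FPKM. Ear2 was 0.59 to 3.09 against 10.85 to 49.73 FPKM. The 5 tested genes differed by -3.07 to 0.45, with a median of -0.66. The part of these lists was not tested either. Vehicle replicate 2 held the highest macrophage sum with a Dpep2 level of 4.18 FPKM, whereas its Alox5ap, Alox5 and Ltc4s levels were near those of the OPG-Fc tumours.

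**Figure D3:**
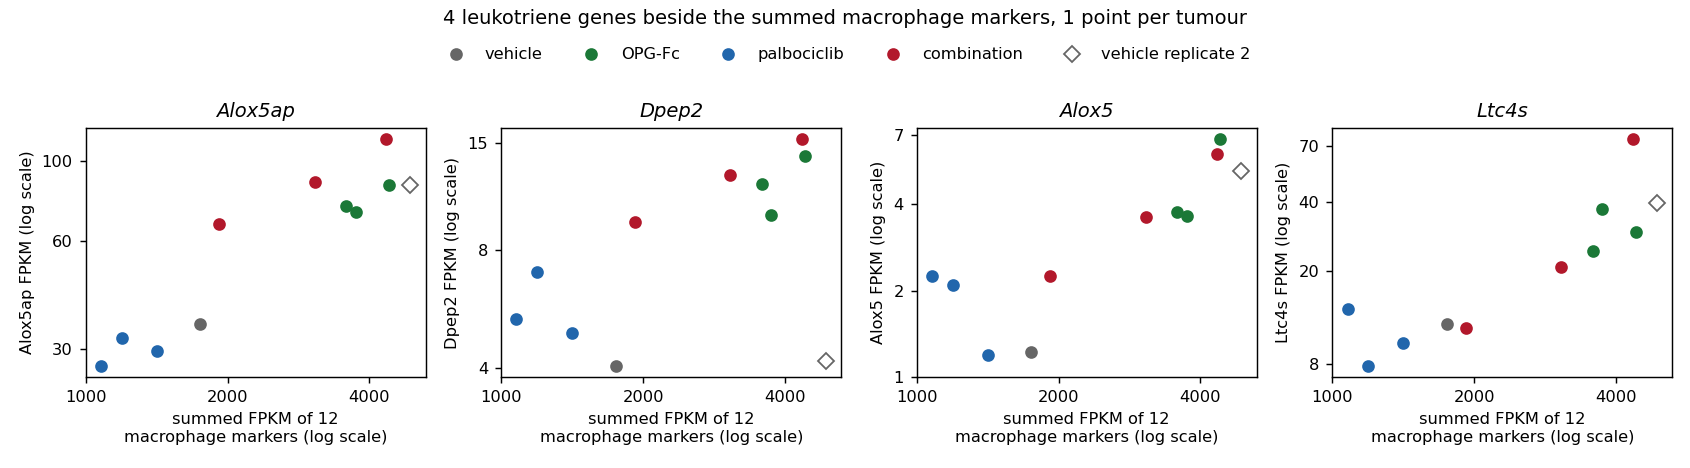
FPKM of Alox5ap, Dpep2, Alox5 and Ltc4s against the summed FPKM of 12 macrophage markers, 1 point per tumour, both axes logarithmic. The 3 palbociclib tumours have the lowest sums, 1077 to 1414, and vehicle replicate 2 (open diamond), with the highest sum, 4887, lies low for Dpep2 alone.

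Over the 10 libraries other than vehicle replicate 2, which share their groups and tissue content, Pearson r of log2(FPKM + 1) described how the genes lay together. Alox5ap and Dpep2 had r = 0.94, Alox5 and Dpep2 0.92, Alox5 and Alox5ap 0.85, and Alox5ap and Ltc4s 0.82. The lowest values were -0.67, for Ptges with Alox5ap and for Ptges with Ltc4s. Among the tested genes most like Alox5ap were Mcub (0.99) and Folr2 (0.97), a folate receptor of tissue macrophages. Those most like Dpep2 were Rab13 (0.98), Cbr2 (0.97) and Spi1 (0.96), the myeloid transcription factor PU.1. Alox5 lay closest to Ptgr1 (0.95), Fcrls (0.95) and Lrrc25 (0.94), and Ltc4s to Tppp3 (0.96), Igfbp6 (0.93) and Dmac1 (0.92).

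The remaining genes had other neighbours. Lta4h lay close to Eif4a1 (0.93) and Umps (0.92), and Ptgs1 closest to Tcf7l1 (0.95), Smarca2 (0.93) and Hs3st1 (0.91). Ptgs2 lay close to Ssr3 (0.95) and Vamp7 (0.94), and Ptges closest to Epb41l5 (0.93), Mcpt1 (0.93), a mast cell protease, and Prss12 (0.89). Cysltr1 lay closest to Mdfic (0.96), Pde7b (0.95) and Nr2f2 (0.94). Cysltr2 had the weakest neighbours, Ube2z (0.89), Trib1 (0.83) and Nmnat2 (0.83).

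Of 61 further pathway genes listed by role, 53 were in the table and 42 were tested. These lists were chosen with earlier results of these data known. For palbociclib minus OPG-Fc, 3 of the 42 passed with all libraries, all lower, beside 0.91% of all genes. The median was -0.24 beside -0.04 over all genes. Without vehicle replicate 2 further genes passed, also lower. They include Alox15 and Ptger3, which passed the filter on low values only through OPG-Fc tumours and vehicle replicate 2. Among receptors, Cmklr1, which binds chemerin and resolvin E1, was 12.7 to 14.4 FPKM with OPG-Fc and 5.17 to 5.72 FPKM with palbociclib (-1.16 ± 0.17 SE; limma adjusted p = 0.0219). Fpr2, the lipoxin and formyl peptide receptor, was 5.37 to 9.96 against 2.43 to 3.05 FPKM (-1.11 ± 0.20; limma adjusted p = 0.0423). Ltb4r1, a leukotriene B4 receptor, did not pass, at 2.34 to 3.26 against 3.47 to 4.85 FPKM.

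Among prostanoid synthases, Tbxas1, the thromboxane synthase, was 14.1 to 16.7 FPKM with OPG-Fc against 3.87 to 6.41 FPKM with palbociclib (-1.44 ± 0.25 SE; limma adjusted p = 0.0403). Prxl2b, a prostamide and prostaglandin F synthase, passed only without vehicle replicate 2, by -1.38. The most abundant synthases, Ptges3 (117.5 to 140.5 against 123 to 164 FPKM) and Akr1b3 (66.5 to 87.5 against 50.2 to 55.7 FPKM), passed in neither fit.

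The other leukotriene and lipoxygenase enzymes passed in part. Without vehicle replicate 2, Alox15 (-1.73), the 12/15-lipoxygenase of mouse macrophages, Ggt5 (-1.31), which trims leukotriene C4 to D4, Dpep1 (-1.17), the other dipeptidase of this list, and Mgst1 (-0.95), a microsomal glutathione transferase, were lower, 4 of 10 tested. Alox15 reached 1 FPKM only in OPG-Fc tumours and vehicle replicate 2, and was 0.22 to 0.36 FPKM with palbociclib. It passed the filter only through libraries where it is high, so its call supports nothing. Mgst3, a transferase of the same family, was 29.6 to 30.2 FPKM with OPG-Fc and 34.8 to 40.8 FPKM with palbociclib without passing. Mgst2 ranged over 8.55 to 13.3 and 11.02 to 16.1 FPKM.

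For release of arachidonate, Pla2g15, a lysosomal phospholipase, was lower without vehicle replicate 2 (-0.79). Pla2g4a, the cytosolic phospholipase that feeds both branches, was 22.7 to 26.4 FPKM with OPG-Fc and 23.5 to 30.4 FPKM with palbociclib. Pla2g7, the platelet-activating factor hydrolase, was 91.6 to 113.8 and 94.2 to 99.5 FPKM. Of prostanoid receptors, Ptger4 (-1.10), Ptger3 (-1.19) and Ptgir (-0.60) were lower without vehicle replicate 2, each with a level under 5 FPKM in the groups compared, and Ptger1 was below the filter. Ptger3 also reached 1 FPKM only in OPG-Fc tumours and vehicle replicate 2 (0.18 to 0.37 FPKM with palbociclib), so its call supports nothing. Of genes for breakdown and transport, none passed, among them the transporter Slco2a1 (80.1 to 90.4 against 63.8 to 89.3 FPKM), Ptgr1 (19.8 to 23.2 against 13.8 to 17.5 FPKM) and Ptgr2 (16.2 to 17.3 against 15.9 to 17.2 FPKM).

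**Figure D4:**
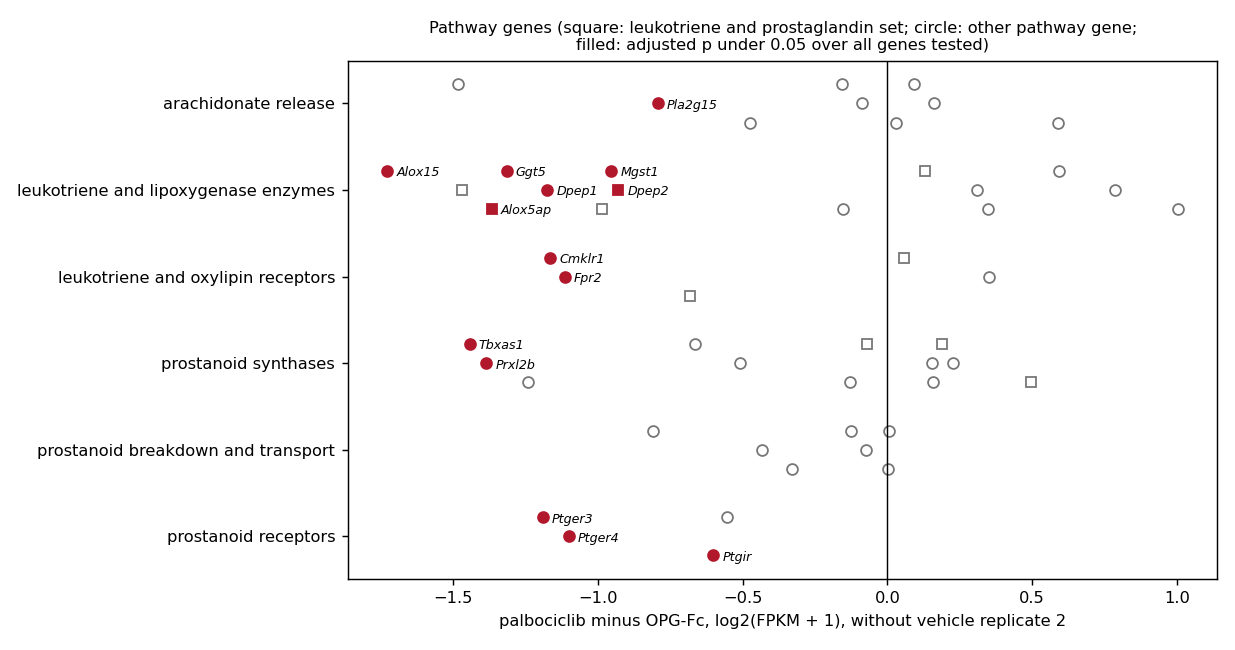
Palbociclib minus OPG-Fc difference on the log2(FPKM + 1) scale, without vehicle replicate 2, for the tested genes of each pathway list (rows), with the 10 genes as squares and other pathway genes as circles. Filled symbols passed the adjusted threshold of 0.05, and all of them, Alox5ap, Dpep2 and 12 other genes, lie left of 0.

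The combination was next compared with OPG-Fc alone, which shares its OPG-Fc tumours with the comparison above. Here 1 of the 10 genes had groups that did not overlap, Lta4h above, beside 38.8% of all genes. None passed with limma, beside 0.0994% of all genes, or 4.7% without vehicle replicate 2. With all libraries 0 had an unadjusted p under 0.05, beside 2020 of 13074 genes. Alox5ap differed by 0.17, with a 95% interval of -0.23 to 0.58 without vehicle replicate 2, and Dpep2 by 0.05, with an interval of -0.39 to 0.49. Cysltr1 had the smallest adjusted p, 0.148 without vehicle replicate 2, at -0.54 ± 0.23 (SE; limma).

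Other genes of the pathway did pass there without vehicle replicate 2: Cmklr1 (-0.55), Pla2g15 (-0.60), Alox15 (-1.45) and Dpep1 (-0.81) were lower and Mgst3 (0.57) was higher, 5 of 42, and none passed with all libraries. Mgst3 was 42.6 to 49.4 FPKM in the combination against 29.6 to 30.2 FPKM with OPG-Fc. Alox15 passed the filter only through OPG-Fc tumours and vehicle replicate 2, so its call supports nothing here either.

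Between the combination and palbociclib, a comparison used in the choice, Alox5ap was higher by 1.54 ± 0.18 and Dpep2 by 0.98 ± 0.20 (SE without vehicle replicate 2), and these were the 2 of 10 genes whose groups did not overlap, beside 20.7% of all genes. Ltc4s differed by 1.29 ± 0.53 and Alox5 by 0.75 ± 0.30, with overlapping groups. Macrophage marker sums were higher in the combination as well, without overlap, and no marker of the 12 passed in either fit. Their part was not tested.

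Against vehicle, values depended on replicate 2. For OPG-Fc minus vehicle, also used in the choice, Dpep2 was higher by 1.32 ± 0.23 and Cysltr2 lower at -0.77 ± 0.18 (SE), the 2 of 10 genes without overlap, beside 21.2% of all genes. Alox5ap differed by 0.49 with both vehicle tumours, 1.12 without replicate 2 and -0.14 without replicate 1. For the combination minus vehicle, 3 of 10 genes did not overlap (Lta4h and Dpep2 above, Cysltr2 below), beside 35.8%. Dpep2 differed by 1.37 ± 0.23 (SE), again a description only.

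None of the 10 genes passed for the combination minus vehicle, beside 0.0% of all genes and 0.0612% without vehicle replicate 2, and 2 and 4 had an unadjusted p under 0.05. For palbociclib minus vehicle, 4 of 10 did not overlap (Lta4h and Dpep2 above, Alox5ap and Cysltr2 below), beside 36.6%. With all libraries none passed in limma, as for all genes (0.0%). There 3 had an unadjusted p under 0.05 (Alox5ap, Cysltr2 and Ptges), beside 3671 of 13074 genes. Alox5ap was -0.88 ± 0.34 with both vehicle tumours and -0.25 ± 0.26 without replicate 2. Cysltr2 was -0.71 ± 0.18 (SE; limma adjusted p = 0.158) and -0.55 ± 0.21 without replicate 2 (adjusted p = 0.453). These tests share the vehicle tumours with the comparison that ranked Cysltr2 and are not independent of its choice.

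Averaged over OPG-Fc, palbociclib called none of the 10 genes, beside 2.83% of all genes and 3.91% without vehicle replicate 2, with 3 and 1 at an unadjusted p under 0.05 in limma. Of the other pathway genes, Cmklr1 was lower (-0.70 ± 0.13 SE; limma adjusted p = 0.0418), and Mgst3 was higher without vehicle replicate 2 (0.56 ± 0.09 SE; adjusted p = 0.0174). The interaction of both drugs called none either with all libraries, beside 0.0%, with 2 at an unadjusted p under 0.05 beside 709 of 13074 genes. These were Alox5ap and Cysltr2, each ranked in a part of this contrast, so the count supports nothing. The smallest adjusted p of the interaction was 0.647 with all libraries and 0.951 without vehicle replicate 2. In the comparisons used in the choice, the share of all genes called was 0.0% in both fits for the combination minus palbociclib, 0.0% and 0.00765% for OPG-Fc minus vehicle, and 0.0% and 3.46% for OPG-Fc averaged over palbociclib.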

How the data were processed

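The submitters' processing notes name HISAT, RSEM and Bowtie2 (versions and roles not given) and GRCm39 (mm39) as the build. The authors deposited FPKM values, fragments scaled by transcript length and library size, in 1 table. A search for whole reads put 23.7 to 27.2% of low values within 0.1 of a whole number, against 20% if uniform, which did not settle the depth, so it is unknown.

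Values were taken as log2(FPKM + 1). Genes reaching 1 FPKM in 2 or more of the 11 libraries were kept (13074). Group means were fitted over all libraries by limma 3.58.1 (R 4.3.3), using a variance trend. P-values are two-sided, adjusted by Benjamini-Hochberg over all genes tested, with a threshold of 0.05. The fit was tested on simulated data. The members and the 19 pathway and marker lists were chosen with earlier results of these data known. Named are all members, the 3 most abundant other genes of each pathway list, up to 4 passing genes of a list per comparison, and the 3 genes of highest correlation with each member, some of which are not reported here. Alternatives varied the pseudocount, filter, scaling, variance prior, weights and libraries. Those on the fit without vehicle replicate 2 and the averaging of libraries with a shared column number were chosen after seeing the data. Promoters come from RefSeq on GRCm38.p6. Figures were drawn with matplotlib 3.10.9.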

Additional observations from a re-analysis of the deposited data

How the results depend on the processing

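Counts of the 10 genes past the threshold moved most with library weights, whose estimation stopped before convergence. With all libraries these gave 6 for palbociclib minus OPG-Fc and 2 for the combination minus OPG-Fc. Counts in the 3 comparisons used in the choice, and those under these weights without vehicle replicate 2, are not given. Fitting only the compared groups gave 4 for palbociclib minus OPG-Fc. An FPKM of at least 5 gave 1 for the combination minus vehicle, Dpep2, which is a description only in that comparison. The share of all genes called under each setting is not given, so these counts describe the processing only and support no gene. The cause was not tested.

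Leaving out 1 library in turn from all 11 gave the highest counts without vehicle replicate 1 in comparisons that include vehicle. That fit leaves the library that stands apart as the whole vehicle group, so its counts are not given. Counts in the 3 comparisons used in the choice are not given either, since the genes had been chosen on these values.

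Directions reversed for values near 0 or resting on 1 tumour. Palbociclib minus OPG-Fc ran from -0.0074 (without palbociclib replicate 1) to 0.1367 (without palbociclib replicate 3) for Cysltr2 as 1 library was left out. For Ptgs2 it became 0.0303 under median-of-ratios scaling (0.0192 without vehicle replicate 2), 0.1555 with library weights (0.1839), 0.2951 without OPG-Fc replicate 1 and 0.2011 without palbociclib replicate 1, with a lowest value of -0.2856 without OPG-Fc replicate 2. Ptgs2 for palbociclib minus vehicle was -0.6975 without vehicle replicate 2 and 3.7537 without replicate 1. Alox5ap for OPG-Fc minus vehicle was -0.142 without vehicle replicate 1 and 1.1158 without replicate 2. For palbociclib minus OPG-Fc without vehicle replicate 2, Alox5ap passed in 17 of 17 alternative settings, among them the averaging of libraries with a shared column number. The palbociclib values of Alox5ap were part of its choice, so this describes the processing only. Dpep2, whose values there were part of its choice, was past the threshold in 15 of 17, the exceptions being without OPG-Fc replicate 1 and without palbociclib replicate 3.

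For libraries of the same replicate number, r of their deviations from group means ran from -0.41 to 0.53 over 15 pairs, 5 of them over 0.1. The highest was vehicle replicate 2 with OPG-Fc replicate 2, the libraries with most lymphoid transcripts. Deviations within a group of 2 or 3 sum to 0, so these r are not independent. The check therefore cannot settle whether the numbers pair tumours. With the replicate number as a block, palbociclib minus OPG-Fc had 0 of the 10 genes with all libraries and 2 without vehicle replicate 2, and no count changed in any comparison. Groups of 2 or 3 tumours, an unknown depth and unknown sharing of animals limit all values.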
